A study of Homo sapiens with 12 samples.

Results

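The cyclin-dependent kinase (CDK) inhibitor genes were examined in RNA-seq libraries of 2 human cancer cell lines. They are the 7 genes CDKN1A, CDKN1B, CDKN1C, CDKN2A, CDKN2B, CDKN2C and CDKN2D, chosen by symbol with earlier results of these data known. They stand on 8 of the 40295 gene identifiers of the count table, because CDKN1C has 2, and on 40 of the 187626 transcripts that were quantified. CDKN1A rose in all 3 treated groups, and it was the only member called in every one of them. CDKN2B rose with p53-WT and with UCI-1014, CDKN2C fell with p53-WT, and CDKN1B fell with UCI-1014.

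CDK inhibitors are small proteins that stop the kinases driving a cell through its division cycle. The CIP/KIP members p21 (CDKN1A), p27 (CDKN1B) and p57 (CDKN1C) bind complexes of a cyclin and its kinase, above all those of CDK2. The INK4 members p15 (CDKN2B), p16 (CDKN2A), p18 (CDKN2C) and p19 (CDKN2D) bind CDK4 and CDK6 and keep them from the D cyclins, so that the retinoblastoma protein stays able to hold back E2F factors. CDKN1A is a textbook target of the transcription factor p53. CDKN2A encodes a second, unrelated protein, p14ARF, which inhibits the p53 antagonist MDM2.

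TOV-112D, an ovarian adenocarcinoma line whose p53 carries the R175H substitution, was exposed for 3 h to DMSO (the solvent), UCI-1001 or UCI-1014, with 2 libraries each. Saos-2 is an osteosarcoma line without p53. The p53-null group is the parental line and the p53-WT group carries wild-type p53 under an inducible promoter delivered by lentivirus. The labels give 16 h of induction for both, with 3 libraries each. No dose for the UCI-1014 libraries was found in the sources used here, so whether the doses of UCI-1001 and UCI-1014 match is unknown. The labels do not say whether replicates came from separate cultures, and p-values measure only the spread between these libraries.

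The libraries held 17762027 to 20717898 counts in TOV-112D and 19593655 to 24629558 in Saos-2. Some defining markers were absent. In TOV-112D the epithelial keratin KRT18 had 0 counts in every library, KRT8 at most 10, and PAX8 and MUC16 at most 1. Other markers on that list were present there, with up to 57 counts of EPCAM, 30 of CDH1, 45 of WT1 and 164319 of VIM, against at most 2, 6, 305 and 53553 in Saos-2. In Saos-2 the osteoblast factor SP7 had 0 counts and the bone matrix gene IBSP at most 2, ALPL at most 12 and COL1A1 at most 42, while RUNX2 reached 256, SPP1 1009 and KRT18 12739. The Saos-2 libraries numbered 1 stood apart from the others of their group, with a chi-square of the counts, divided by its degrees of freedom, of up to 38.4 against other replicates. The remaining p53-null and p53-WT pairs were at 3.79 and 3.09. Without both of them, 4 members were still called in the p53-WT comparison.

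The sequences that bear on the results are the upstream region of CDKN1A, which holds a p53 response element, and the alternative first exons of CDKN2A, which decide the protein that is made. They are given 5′ to 3′ on the strand of the gene, from GRCh38. The CDKN1A stretch is chr6:36676429-36676488 (plus strand), with the element in capitals. The CDKN2A stretches are the first coding bases of p16INK4a at chr9:21974768-21974827 in exon 1alpha and of p14ARF at chr9:21994272-21994331 in exon 1beta (minus strand), with the start codon in capitals.

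CDKN1A upstream element: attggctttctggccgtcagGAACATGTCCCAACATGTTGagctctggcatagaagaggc

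CDKN2A, p16INK4a start: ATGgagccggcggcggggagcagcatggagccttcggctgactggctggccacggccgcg

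CDKN2A, p14ARF start: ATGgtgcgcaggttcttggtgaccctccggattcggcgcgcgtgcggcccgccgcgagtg

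The element came from a second search. The 2500 bases before each of 35116 RefSeq start sites (GRCh38), 9 of them of members and none of CDKN1C, were first searched for the p53 response element, a pair of adjoining decamers with both cores intact, at no more than 1 mismatch. That search matched 107 windows (0.305%) and none of a member. The limit was then widened to 2 mismatches, after this result and with a CDKN1A element known from textbooks, and 477 windows (1.36%) matched. The CDKN1A window was the only member window among them, 2265 bases before its start site, and its match is a description. The heat shock element, searched on both strands as GAA, TTC and GAA with any 2 bases after each of the first pair of triplets, was in 3.75% of windows and in no member's. The antioxidant response element, searched on both strands as TGAC and GC with any 3 bases between them, was in 59.3% of windows, among them those of CDKN1B, CDKN2B and the exon 1beta side of CDKN2A. The GC box GGGCGG, the last motif searched, stood 4 times in the 250 bases before the CDKN1A start on either strand, and 7.63% of such promoters held at least as many. It stood 5 times before a CDKN2C start and 0 to 2 times before the 7 remaining member starts.

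CDKN1A, which encodes p21, covers chr6:36676460-36687337 on the plus strand. In CPM (counts relative to library size, scaled by TMM within each cell line), the DMSO libraries stood at 7.78 and 9.20, those of UCI-1001 at 25.3 and 27.9, and those of UCI-1014 at 97.7 and 99.6. The 3 groups did not overlap. In Saos-2 it stood at 79.1, 56.9 and 58.0 CPM in the p53-null libraries and at 9039, 7921 and 8047 in the p53-WT libraries. The highest p53-null library was the one numbered 1, and all 3 p53-WT libraries lay far above it.

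**Figure D1:**
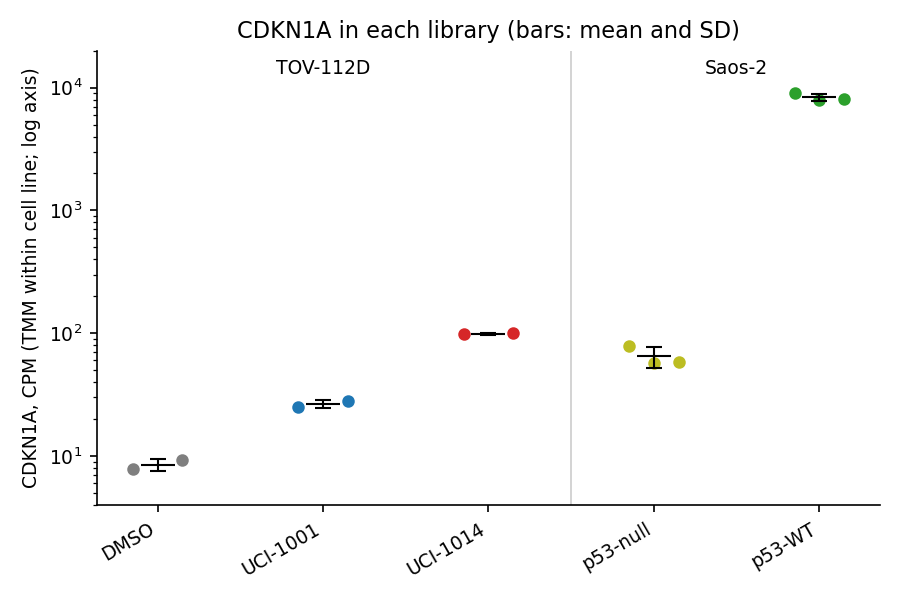
CDKN1A in each library, in CPM on a log axis, with 1 point per library and the mean and SD of each group as bars. The UCI-1014 libraries sit at 97.7 and 99.6 CPM and the p53-WT libraries at 7921 to 9039.

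CDKN1A rose 129-fold with p53-WT (95% interval 97.0 to 171), or 7.01 on the log2 scale (SE 0.19, edgeR quasi-likelihood test, Benjamini-Hochberg adjusted p = 6.2e-10). Only 102 of 14275 genes tested had a higher log2 fold change. It rose 3.13-fold with UCI-1001 (2.71 to 3.61), or 1.65 on the log2 scale (SE 0.10, adjusted p = 3.9e-08 by edgeR), with 105 of 14177 genes higher. It rose 11.6-fold with UCI-1014 (10.3 to 13.2), or 3.54 on the log2 scale (SE 0.08, adjusted p = 2.5e-13 by edgeR), with 60 genes higher. Both compound comparisons share the DMSO libraries. In bulk libraries such as these, a change in the number of expressing cells and one in the RNA per cell cannot be told apart.

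Nearly all CDKN1A reads were assigned to 1 form. CDKN1A-201, the 2180-base protein-coding transcript that starts at position 36678714, held 94.3% to 97.3% of the gene's estimated counts as group means. Its log2 change was 7.07 with p53-WT (adjusted p = 6.2e-05, edgeR on rounded estimated counts), 1.64 with UCI-1001 (adjusted p = 0.029) and 3.51 with UCI-1014 (adjusted p = 9.4e-04), where 22.0%, 0.169% and 4.67% of all transcripts tested were called. Leaving out 1 library leaves its group with a lone library, which is assumed to vary like those of the other groups. With each of the 4 libraries left out in turn, the UCI-1001 change was 1.52 to 1.76 and not called (adjusted p 0.11 to 0.20), and the UCI-1014 change was 3.40 to 3.61 and called (adjusted p 0.012 to 0.020). The uncertainty of assigning reads to transcripts is not in these fits. With the compounds, CDKN1A-207 was the only other form tested, and it was not called (adjusted p = 0.73 and 0.17 by edgeR). The other 6 forms did not pass the filter on low counts there.

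With p53-WT, 6 of the 8 CDKN1A transcripts were tested. Several of them passed the filter on low counts only through the p53-WT libraries and could differ in 1 direction alone, so their calls are not counted. One was CDKN1A-208, whose first exon, chr6:36676460-36676524, begins inside the response element printed above. It had 0 estimated counts in each p53-null library and 583 to 672 in the p53-WT libraries, which is 0.34% of the gene's counts (SD 0.07, n = 3). In TOV-112D it had 0 estimated counts in 5 libraries and 16.5 in 1 UCI-1001 library, 2.97% of the gene's counts there. At the p53-WT share, the far lower CDKN1A counts of TOV-112D would hold few such reads. A difference in its use between the lines was not tested.

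CDKN1A-207, a short form of 616 bases without a defined coding sequence, took 18.2% and 20.9% of the gene's TPM (transcript abundance, which corrects for length) with UCI-1014. It took 12.2% and 18.1% with UCI-1001 and 0% and 20.3% with DMSO, so the DMSO range overlapped both others. Its estimated counts, 0 and 8.04 with DMSO and 68.6 and 95.5 with UCI-1014, did not overlap. Its rise with UCI-1014 was not called (log2 fold change 4.35, SE 1.31, adjusted p = 0.17 by edgeR). The share of CDKN1A-201 in the gene's TPM was 95.2% with p53-WT against 92.8% in p53-null cells (exact permutation test, two-sided, p = 0.20). It was 78.3% with UCI-1014 and 82.2% with UCI-1001 against 88.0% with DMSO (exact permutation p = 0.33 and 0.67). The smallest p these tests allow is 0.10 with 3 against 3 libraries and 0.33 with 2 against 2.

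CDKN1B encodes p27 and was the CIP/KIP member that fell. The DMSO libraries stood at 41.9 and 39.5 CPM, those of UCI-1001 at 36.1 and 35.8, and those of UCI-1014 at 30.4 and 28.3. The 3 groups did not overlap, but the change with UCI-1001 was not called (log2 fold change -0.18, SE 0.07, adjusted p = 0.090 by edgeR). The fall with UCI-1014 was 1.39-fold, or -0.47 on the log2 scale (SE 0.07, adjusted p = 6.4e-05 by edgeR). In Saos-2 the p53-null libraries lay at 38.9 to 40.1 CPM and the p53-WT libraries at 32.8 to 44.7, around them. The interval for p53-WT against p53-null was 0.826-fold to 1.21-fold.

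CDKN1C encodes p57 and was the least abundant member in every library by TPM, which covers its first identifier alone. Over both identifiers it had 27 to 58 counts in TOV-112D and 7 to 18 in Saos-2. No treated group was called. With UCI-1014 its log2 fold change was 0.66 (SE 0.28, adjusted p = 0.066 by edgeR), and the direction rests on the second identifier, which had 35 and 17 counts in the UCI-1014 libraries and 2 and 3 with DMSO. With the identifiers kept apart, the first one had a log2 fold change of -0.31. How reads were divided between these identifiers was not tested.

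Of the INK4 genes, CDKN2A was the most abundant, and CDKN2A led all 7 members in every library except those of p53-WT. Its summed TPM was 190 (SD 18.7, n = 2) in DMSO libraries, and 191 and 184 in those of UCI-1001 and UCI-1014. It was 104 (89.8 to 111, n = 3) in p53-null and 72.8 (SD 2.2, n = 3) in p53-WT cells. Neither compound moved it beyond the test, with intervals of 0.981-fold to 1.13-fold for UCI-1001 and 0.925-fold to 1.07-fold for UCI-1014. With p53-WT it was called lower (log2 fold change -0.28, SE 0.11, adjusted p = 0.043 by edgeR). That call was lost in 8 of 14 alternatives, DESeq2 (adjusted p = 0.068) and the replicate block (adjusted p = 0.050) among them, and without p53-null replicate 2, p53-null replicate 3, p53-WT replicate 2 or p53-WT replicate 3, when the adjusted p lay between 0.079 and 0.20.

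Most CDKN2A reads were assigned to the p14ARF side of the gene. Transcripts with exon 1beta held 1803 and 1834 estimated counts with DMSO, or 89.4% of the gene's counts (SD 3.1, n = 2). Transcripts with exon 1alpha, the p16INK4a side, held 4.93 and 12.1, or 0.43% (SD 0.27). In p53-null cells exon 1beta forms held 775 to 1157 and exon 1alpha forms 5.28 to 8.25. Exon 1alpha forms stayed at or below 16.4 estimated counts in all 12 libraries. The rest was assigned to forms without either first exon, 10.2% of the gene's counts with DMSO (SD 3.4, n = 2), 22.8% in p53-null (SD 7.5, n = 3) and 24.8% in p53-WT cells (SD 5.5, n = 3). Of these CDKN2A-212, which starts near the shared second exon, held 14.3%, 27.6% and 33.6% of the gene's TPM in those groups.

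**Figure D2:**
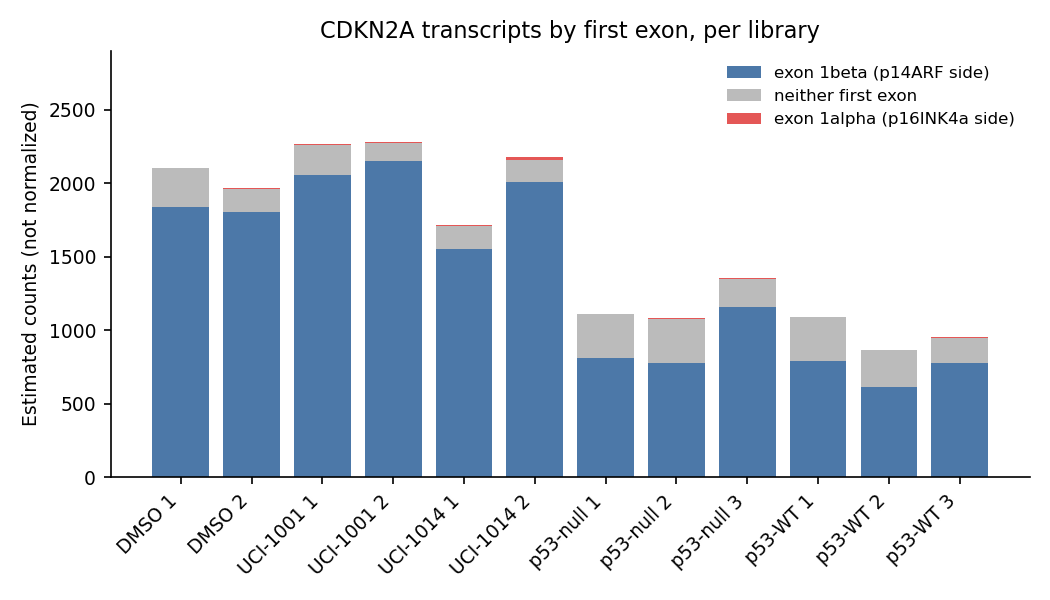
CDKN2A estimated counts (not normalized) in each library, stacked by first exon. Exon 1beta forms make up most of every bar, and exon 1alpha forms, at most 16.4 estimated counts, are barely visible.

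CDKN2B, which encodes p15, lies beside CDKN2A at chr9:22002903-22009305. The DMSO libraries stood at 6.49 and 6.98 CPM, those of UCI-1001 at 8.37 and 8.25, and those of UCI-1014 at 10.8 and 10.9. The groups did not overlap in CPM, but by TPM the UCI-1001 libraries (5.14 and 8.76) overlapped both others. The rise with UCI-1014 was 1.61-fold (1.34 to 1.93, adjusted p = 3.4e-04 by edgeR), a call lost with limma on summed TPM (adjusted p = 0.095), and the difference with UCI-1001 was not called (1.23-fold, 1.02 to 1.49, adjusted p = 0.13). In Saos-2 it went from 12.4, 14.5 and 13.6 CPM in p53-null to 29.9, 33.1 and 35.9 in p53-WT libraries. That rise was 2.44-fold (2.03 to 2.93), or 1.29 on the log2 scale (SE 0.12, adjusted p = 2.9e-06 by edgeR).

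CDKN2C, which encodes p18, fell with p53-WT. It stood at 33.1, 33.5 and 34.7 CPM in p53-null libraries and at 7.66, 7.27 and 6.34 in p53-WT libraries, with no overlap. The fall was 4.76-fold, or -2.25 on the log2 scale (SE 0.12, adjusted p = 3.2e-08 by edgeR), and 317 of 14275 genes had a lower one. CDKN2C-203, which held 74.9% of the gene's TPM in p53-null cells (SD 5.5, n = 3), fell by 2.85 on the log2 scale (adjusted p = 2.0e-04, edgeR on estimated counts). CDKN2C-201, which held 2.37% of the TPM in p53-null cells (SD 0.36), fell by 2.03 (SE 0.50, adjusted p = 0.035). CDKN2C-202 was not called (log2 change -0.59, SE 0.33, adjusted p = 0.26), and with p53-WT it held 57.3% of the gene's TPM (SD 8.9) against 40.5% for CDKN2C-203 (SD 8.1). In TOV-112D all 6 libraries lay between 29.98 and 32.6 CPM, and the intervals against DMSO were 0.914-fold to 1.12-fold for UCI-1001 and 0.867-fold to 1.07-fold for UCI-1014.

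CDKN2D, which encodes p19, was not called in any treated group. It stood at 2.81 to 3.81 CPM in TOV-112D, and at a mean of 10.3 (SD 0.82, n = 3) in p53-null and 10.04 (SD 2.0, n = 3) in p53-WT cells, and within each line the groups overlapped.

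**Figure D3:**
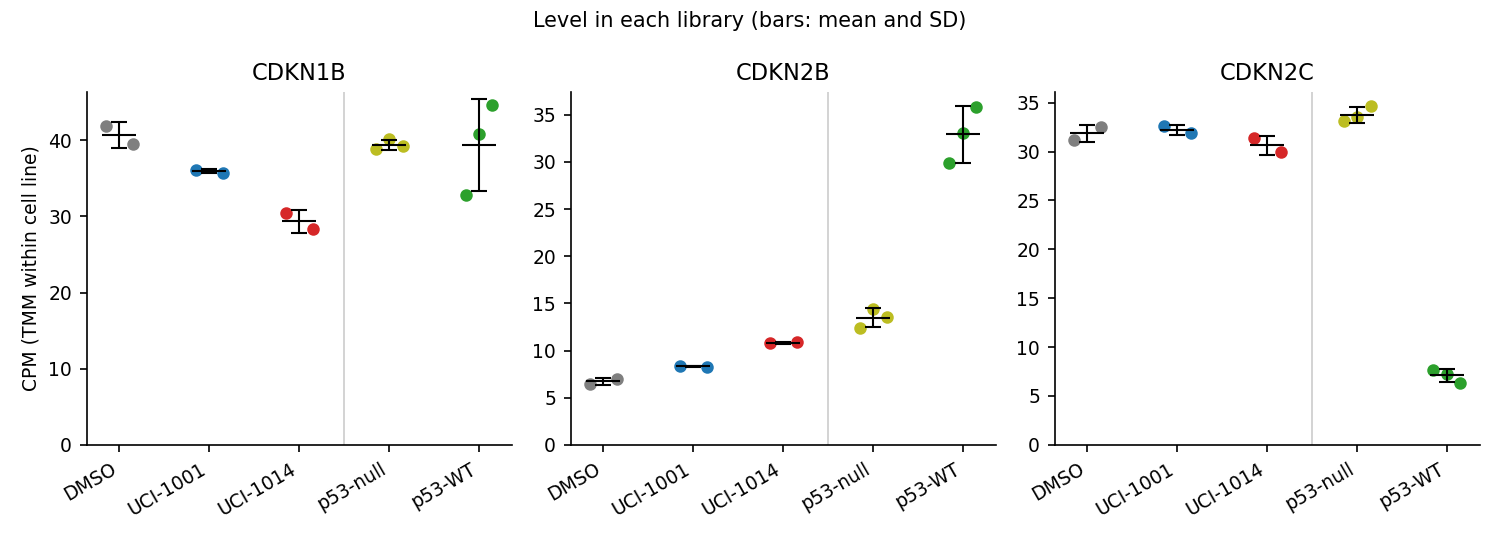
CDKN1B, CDKN2B and CDKN2C in each library, in CPM scaled within each cell line, with the mean and SD of each group as bars. CDKN2B goes from 6.49 and 6.98 with DMSO to 10.8 and 10.9 with UCI-1014, and CDKN2C from 33.1 to 34.7 in p53-null to 6.34 to 7.66 in p53-WT libraries.

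All 7 members passed the filter on low counts in every comparison. With p53-WT, 2 were called higher and 2 lower, where 66.5% of all 14275 genes were called (33.5% higher and 33% lower). With UCI-1001, 1 of 7 was higher and none lower by edgeR, where 15.7% of 14177 genes were called (9.39% higher and 6.36% lower). With UCI-1014, 2 were higher and 1 lower, where 47.1% were called (23.7% higher and 23.4% lower). These shares are near those of all genes or rest on few members, and the count alone says nothing particular about the family. The median log2 fold change of the members was 0.00 with p53-WT, 0.08 with UCI-1001 and -0.01 with UCI-1014, against -0.01, 0.00 and -0.02 for all genes tested.

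**Figure D4:**
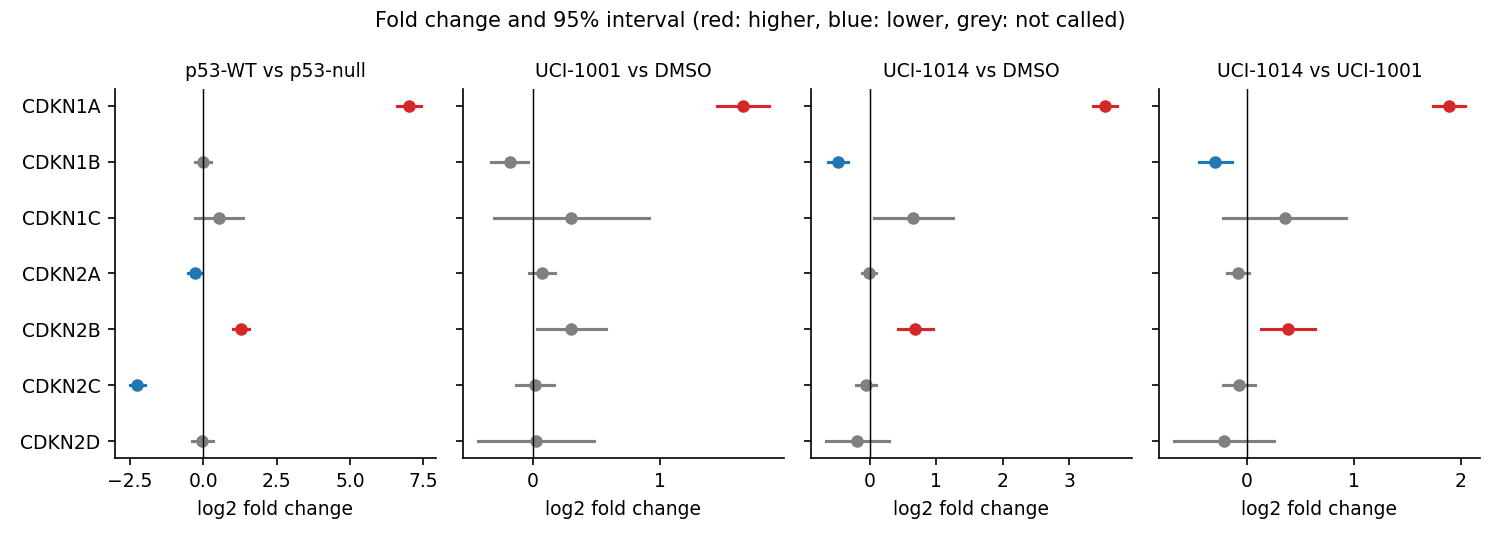
Log2 fold change and 95% interval of each member in 4 comparisons, each panel with its own axis. CDKN1A is the only member called higher in all 4, at 7.01, 1.65, 3.54 and 1.89.

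UCI-1014 and UCI-1001 were compared with each other once, at 3 h and with doses that could not be matched. CDKN1A was 3.71-fold higher with UCI-1014 (3.35 to 4.12, adjusted p = 1.6e-10 by edgeR). CDKN2B was 1.30-fold higher (1.09 to 1.55, adjusted p = 0.024) and CDKN1B 1.23-fold lower (adjusted p = 0.0058), where 31.1% of all genes were called (17.1% higher and 13.9% lower). The CDKN2B call was lost in 7 of 12 alternatives: with each of the 4 libraries left out (adjusted p 0.057 to 0.073), with DESeq2 (0.15), with all 12 libraries in 1 fit (0.16) and with limma on summed TPM (0.45). The CDKN1B call was lost in 3 of 12, without UCI-1014 replicate 2 (adjusted p = 0.061), with limma on summed TPM (0.16) and with all 12 libraries in 1 fit (0.17). The other 4 members were not called, with intervals of 0.878-fold to 1.01-fold for CDKN2A, 0.857-fold to 1.05-fold for CDKN2C, 0.624-fold to 1.19-fold for CDKN2D and 0.859-fold to 1.90-fold for CDKN1C.

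The control cultures differed in which inhibitors they held. Against p53-null Saos-2, DMSO-treated TOV-112D had 8.16-fold less CDKN1A (log2 fold change -3.03, SE 0.18, adjusted p = 5.4e-07 by edgeR), 3.21-fold less CDKN2D and 2.14-fold less CDKN2B. It had 3.40-fold more CDKN1C (adjusted p = 0.0014) and 1.86-fold more CDKN2A (adjusted p = 1.9e-05). CDKN2C (log2 fold change -0.18, SE 0.08, adjusted p = 0.071) and CDKN1B (-0.05, SE 0.08, adjusted p = 0.58) were not called, and CDKN2C was called without p53-null replicate 1 (adjusted p = 0.013). So 2 members were higher and 3 lower, where 78.3% of 14836 genes were called (39% higher and 39.3% lower). Cell line, p53 status, medium and induction cannot be told apart here.

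Per length, the order of the members changed with treatment. In DMSO libraries CDKN1A held 2.85% of the summed TPM of the family (SD 0.85, n = 2) and ranked behind CDKN2A at 72.5%, CDKN2C and CDKN1B. With UCI-1014 it held 27.2% (SD 0.18) and came second in both libraries. In p53-null cells it was second at 20.6% (SD 3.6, n = 3), and with p53-WT it held 97.5% (SD 0.06, n = 3). By level the 5 groups ran p53-WT (5040 TPM), UCI-1014 (91.2), p53-null (45.2), UCI-1001 (24.2) and DMSO (7.39), and no neighbours in that order overlapped. For CDKN2C only p53-WT (5.94 TPM) stood apart from its neighbour in the order, and CDKN1C had overlapping neighbours throughout.

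**Figure D5:**
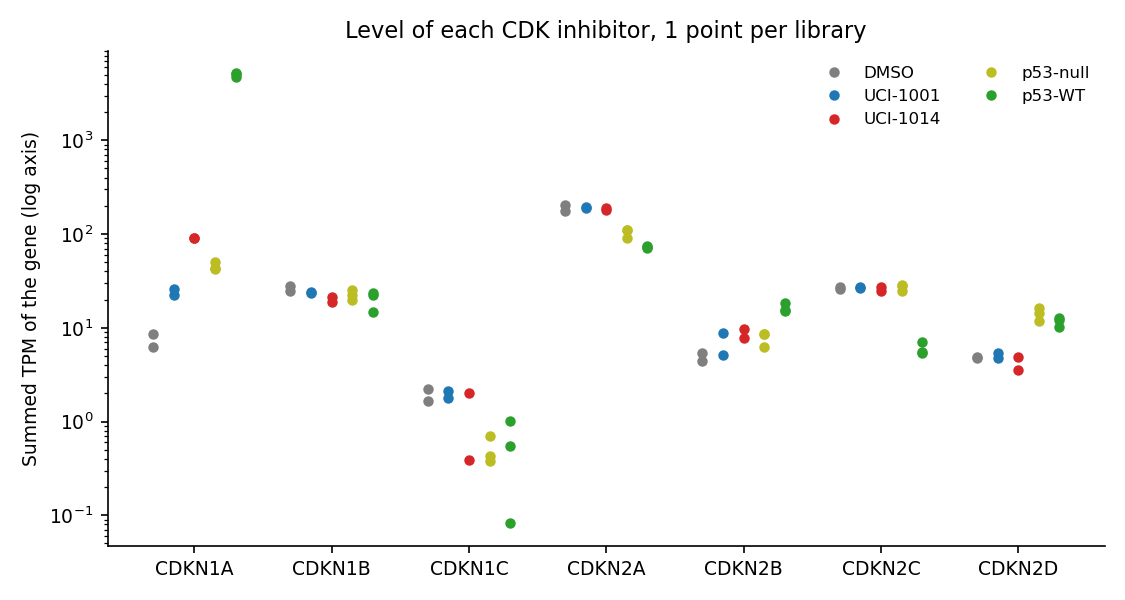
Summed TPM of each CDK inhibitor on a log axis, with 1 point per library, coloured by group. CDKN1A spans 6.20 to 5188 TPM over the 12 libraries.

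The targets and partners of the inhibitors were read from lists of the pathway. Of the cyclins and their kinases, 14 of 15 were tested with p53-WT, and 11 fell and 1 rose, with a median log2 fold change of -1.20 against -0.01 for all genes, of which 33% fell and 33.5% rose. CCNE2, a cyclin E that activates CDK2, fell by 4.51 and CCNA2, the cyclin A of S phase, fell by 3.71 on the log2 scale. CCNA1 rose by 4.80 (adjusted p = 7.7e-10 by edgeR). With UCI-1014, 6 of the 14 fell and 3 rose, beside 23.4% and 23.7% of all genes. With UCI-1001, 3 fell and none rose by edgeR, beside 6.36% and 9.39%. The list medians were -0.05 and -0.01. The cyclins E fell in both, CCNE2 by 0.75 and CCNE1 by 0.69 with UCI-1014, and by 0.39 and 0.38 with UCI-1001. CDK7 was higher with UCI-1014, at a mean of 28.7 CPM against 17.9 with DMSO, as was CCNH, at 23.3 against 17.9.

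Among 15 pocket proteins, E2F factors and their partners, 10 fell and 3 rose with p53-WT, beside 33% and 33.5% of all genes. E2F2 fell by 3.55 and E2F1 by 3.39 on the log2 scale, while RB1, the retinoblastoma gene, rose by 1.37. The RB1 level was uneven, at 147.9, 247.6 and 258.8 CPM in the p53-WT libraries against 81.8 to 88.7 in p53-null. Whether Saos-2 makes a working retinoblastoma protein was not tested. With UCI-1014, 6 fell and 3 rose, beside 23.4% and 23.7% of all genes. With UCI-1001, 2 rose and none fell, beside 9.39% and 6.36% of all genes. LIN54, a subunit of the DREAM complex that represses cell cycle genes, rose by 0.76 with UCI-1014 and by 0.27 with UCI-1001.

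Of 13 genes that serve the turnover of p21 and p27, 7 fell and 3 rose with p53-WT, beside 33% and 33.5% of all genes. DTL, which guides an E3 ligase to p21 on PCNA, fell by 3.80. PCNA was higher there, at a mean of 360 CPM against 224 in p53-null libraries. So were RNF123, at 124 against 41.9, and DDB1, at 620 against 327. With UCI-1014, 6 fell and 2 rose, beside 23.4% and 23.7% of all genes. RBX1, the RING subunit of cullin ligases, fell by 0.96 and PCNA fell by 0.58. With UCI-1001, 2 fell and none rose, RBX1 by 0.21 and PCNA by 0.17, beside 6.36% and 9.39% of all genes.

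Among 21 tested regulators of CDK inhibitor transcription, 13 rose and 4 fell with UCI-1014, beside 23.7% and 23.4% of all genes. With UCI-1001, 5 rose and 2 fell, beside 9.39% and 6.36%. ETS1 rose by 2.16 (adjusted p = 1.6e-07 by edgeR) and 1.03 (adjusted p = 0.0022). KLF4, a factor that can act at the CDKN1A promoter, stood at 0.05 CPM in both DMSO libraries, about 1 read. It stood at 1.58 and 1.86 with UCI-1001 and at 4.66 and 2.97 with UCI-1014. It passed the filter only through the compound libraries, so its place among the 13 and the 5 that rose supports nothing. SMAD3, a TGF-beta effector, fell by 0.78 and 0.49. With p53-WT, 8 of the 21 rose and 10 fell, beside 33.5% and 33% of all genes, with MYC down by 1.55 and TP73 by 1.66.

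Genes next to the inhibitors were also measured, 12 of the 23 listed in Saos-2 and 13 in TOV-112D. With p53-WT 4 rose and 7 fell, beside 33.5% and 33% of all genes. With UCI-1014 2 rose and 3 fell, beside 23.7% and 23.4%. SRSF3, a neighbour of CDKN1A, rose by 0.24, and MTAP, a neighbour of CDKN2A and CDKN2B, fell by 0.39 with that compound. With UCI-1001 none was called by edgeR.

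The genes whose pattern was most like that of CDKN1A were found by the root mean square difference in log2 CPM over the 12 libraries, each centred on the control of its own line, among 12939 genes. They were GDF15 (0.70), CRYAB (0.85), BTG2 (0.94), CRISPLD2 (1.14) and LBH (1.17). GDF15, a secreted stress factor, had log2 fold changes of 8.09 with p53-WT, 1.35 with UCI-1001 and 2.92 with UCI-1014. CRYAB, a small heat shock protein, had 9.49, 1.88 and 3.85, and LBH had 6.70, 1.31 and 2.46. BTG2 had 7.08, 0.54 and 1.55, and CRISPLD2 had 7.35, 0.60 and 1.13. CDKN1A itself had 7.01, 1.65 and 3.54, so BTG2 and CRISPLD2 were closer to it with p53-WT than with the compounds. The libraries that set the likeness are those that set the changes, so it is a description.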

How the data were processed

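RNA-seq of 12 libraries was analysed. Per the labels and the study's methods, the authors quantified reads against GRCh38 with kallisto 0.48.0 and summed estimated counts per Ensembl gene into whole-number counts. The deposited files hold these gene counts, and per library the estimated counts and TPM of each transcript, made by the authors. Strand handling and the transcript release are not given in the sources used here.

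Gene counts were summed by symbol and tested with edgeR 4.0.16 in R 4.3.3 (TMM, filterByExpr, quasi-likelihood test, Benjamini-Hochberg over all genes, call at adjusted p under 0.05), in 1 fit per cell line and 1 for the controls. Estimated counts were rounded and tested likewise. TPM compared genes and CPM compared libraries. Transcripts were matched to GENCODE 44 by identifier (88.4%). The tests were tried on simulated data. Alternatives were DESeq2 1.42.0, RLE scaling, no filter, identifiers apart, limma 3.58.1 on log2(TPM + 0.1), a replicate block, all 12 libraries in 1 fit, and each library left out. Leaving out both Saos-2 libraries numbered 1 and crossing the UCI-1014 numbers were chosen after seeing the data, as were the wider p53 element search and the GC box search.

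The members and lists were chosen with earlier results of these data known. All members were named in each comparison, with at most the 2 largest called rises and falls per list, and the 5 genes nearest to CDKN1A. The rise of PCNA with p53-WT was named beyond that rule. The antisense and noncoding RNAs PANDAR, DINOL, CDKN1A-AS1, CDKN2B-AS1, CDKN2A-DT, KCNQ1OT1 and H19 were not analysed here, and a check of the group labels is not reported here.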

Additional observations from a re-analysis of the deposited data

How the results depend on the processing

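CDKN1A kept its direction and its call in every comparison under all alternatives run, with log2 fold changes of 6.80 to 7.18 with p53-WT, 1.52 to 1.77 with UCI-1001 and 3.43 to 3.66 with UCI-1014. CDKN2B and CDKN2C kept theirs with p53-WT. The number of members called for UCI-1014 against UCI-1001 went from 3 to 1 with summed TPM and with all 12 libraries in 1 fit, and was 1 to 2 with 1 library left out. The number of member transcripts called with 1 library left out was 0 for UCI-1001 against DMSO, 1 for UCI-1014 against DMSO and 0 for UCI-1014 against UCI-1001. The cause was not tested.

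Most values that changed sign lay near 0 and were not called. For CDKN1B with p53-WT they were -0.012 without the filter, -0.17 with summed TPM, -0.010 with the replicate block and -0.10 to 0.12 with 1 library left out. For CDKN1C, identifiers kept apart gave -0.076 with p53-WT, -0.31 with UCI-1014 and -0.60 for UCI-1014 against UCI-1001, and summed TPM gave -0.20, -0.98 and -0.999. CDKN2A with UCI-1014 was 0.0032 with DESeq2 and 0.0037 with RLE scaling. With all 12 libraries in 1 fit, CDKN2C and CDKN2D with UCI-1001 were -0.013 and -0.0045. With 1 library left out, CDKN2D ranged from -0.18 to 0.11 with p53-WT and from -0.11 to 0.15 with UCI-1001, CDKN2C from -0.014 to 0.046 with UCI-1001, and CDKN2A from -0.063 to 0.061 with UCI-1014. CDKN1B for DMSO against p53-null was 0.24 with summed TPM. With summed TPM the CDKN2B call with UCI-1014 was lost (adjusted p = 0.095, limma).

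Whether replicate numbers pair the samples was not settled. Deviations of same-numbered p53-WT and p53-null libraries correlated at 0.14, 0.09 and 0.07. The p53-WT replicates 1 and 2 correlated best with the p53-null library of their own number, and p53-WT replicate 3 with p53-null replicate 2. Same-numbered libraries of UCI-1014 and UCI-1001 correlated at -0.16. With the replicate block the p53-WT comparison called 9814 genes against 9489 without it, and 3 members against 4. With the UCI-1014 numbers crossed, 4979 genes were called for UCI-1014 against UCI-1001, against 3882 with the block as numbered and 4406 without it. Depth limits CDKN1C most, at 7 to 58 counts a library.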
